A study of Homo sapiens with 7 samples.

Results

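The proteasome genes were described in the transcriptome of HCT116 cells, a long-established line from a human colon carcinoma, as measured in 1 RNA-seq library. The 48 members were all genes of the expression file whose symbol is PSM, a letter from A to G and a number, out of 20423 genes. The series otherwise maps insertions of the piggyBac transposon made by the wild-type transposase (3 libraries) or by a fusion of the transposase with the transcription factor SP1 (2 libraries), together with SP1 ChIP-seq peaks (1 sample). These samples share the cell line. Their positions are in the hg18 build and were not set beside the proteasome genes, whose hg18 positions were not used here. The labels give the RNA library no genotype, treatment or time of its own. Levels are RPKM, that is reads scaled to the length of the gene and to the number of mapped reads, so that genes of different length can be set side by side. With 1 library there is no replicate error, its sequencing depth is unknown here, and no test between conditions and no interval for a level was possible. All levels and folds between genes below are descriptions of this library.

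The proteasome is the large protease that degrades proteins marked with ubiquitin. Its core particle is a barrel of stacked rings, in which outer alpha rings gate the entry and inner beta rings carry the proteolytic sites. A regulatory particle caps the barrel: its ATPase ring unfolds substrates and its non-ATPase subunits bind ubiquitin chains and remove them. Cells exposed to interferon can exchange the catalytic beta subunits for immunoproteasome subunits, which alter the peptides made for antigen presentation. Other proteins open the barrel (activators), bind and inhibit it, or help it assemble.

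Most proteasome genes were expressed well above the typical gene of the library. The median member stood at 36.8 RPKM and the median of all genes at 1.91, a 19.3-fold difference. At or above 10 RPKM were 39 of 48 members (81.3%), against 24.4% of all genes. At or above 50 RPKM were 21 members (43.8%, against 5.63% of all genes), and at or above 100 RPKM 10 members (20.8%, against 2.43%). At or above 1 RPKM were 44 members (91.7%), against 57.0% of all genes. Together the members took 0.946% of the summed RPKM of all genes. The epithelial markers of the cell line were present, with KRT19 at 543, KRT8 at 378, KRT18 at 268, EPCAM at 79.5 and CDH1 at 17.01 RPKM, although the intestinal marker VIL1 was at 0.0313. Of 5 markers of blood, endothelial and fibroblast cells, PTPRC and CD3E were listed at 0, PECAM1 and COL1A2 stood at 0.0371 and 0.0277, and COL1A1 stood at 14.5 RPKM.

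**Figure D1:**
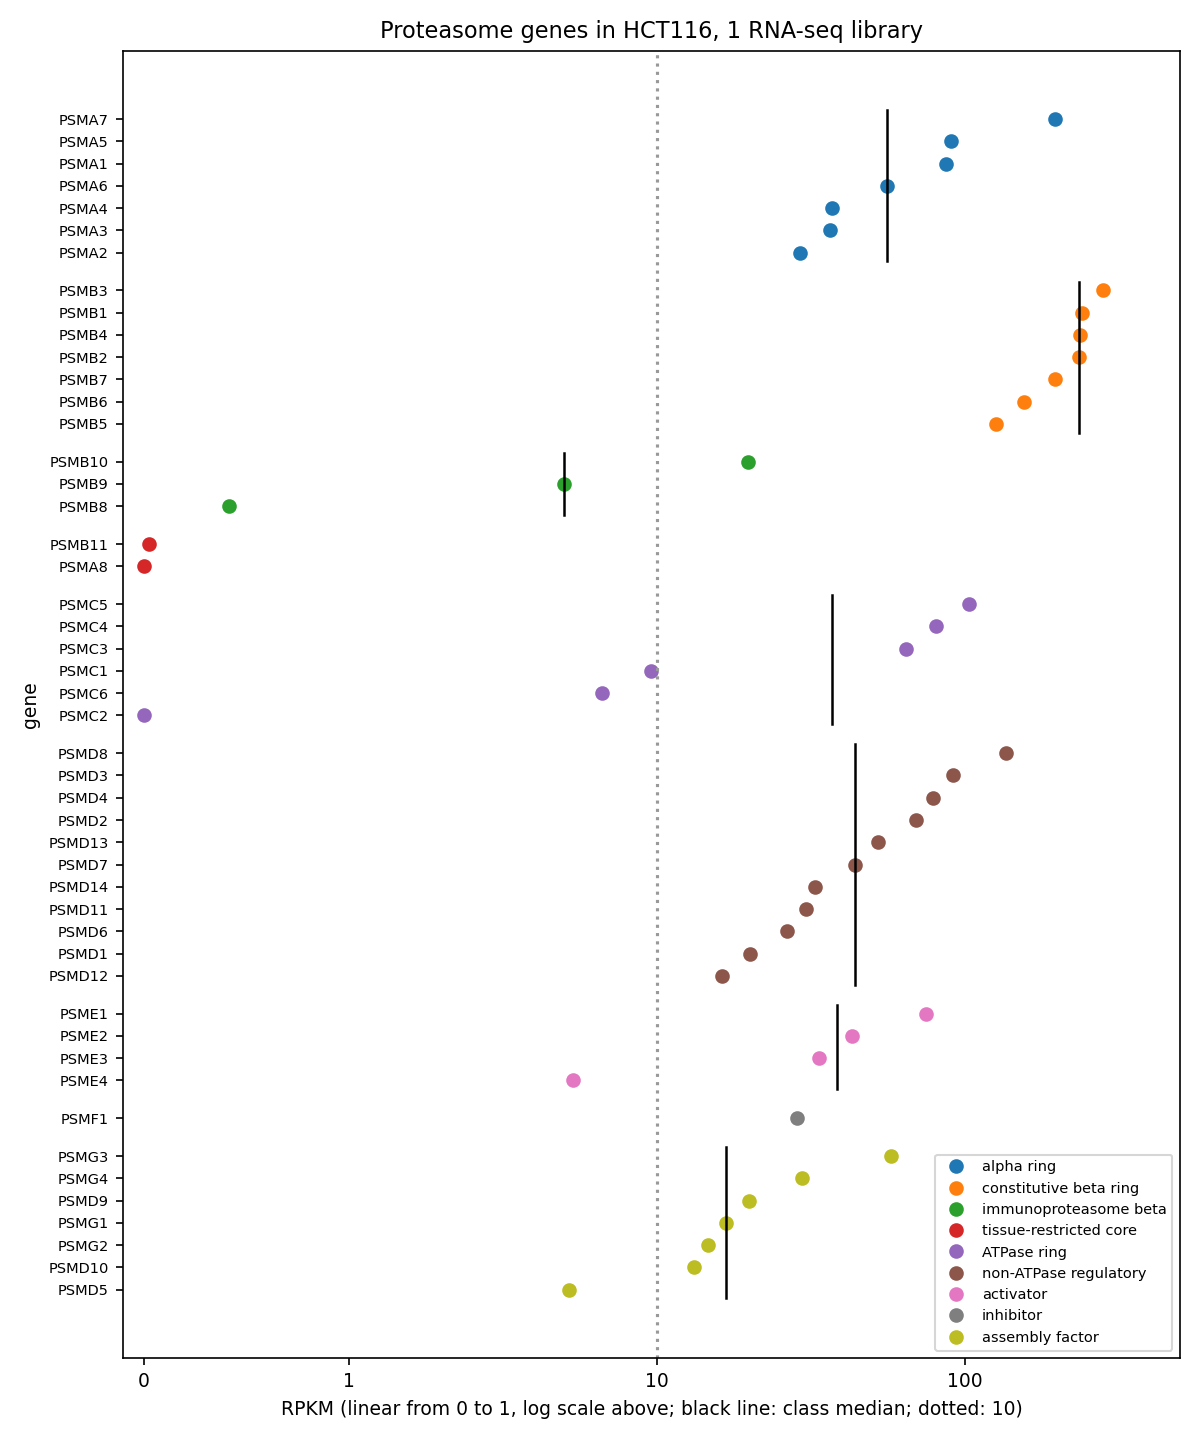
Level of each of the 48 proteasome genes in the RNA-seq library, grouped by role, with RPKM on the horizontal axis (linear from 0 to 1, logarithmic above) and a black line at the median of each class of 3 or more genes. All 7 constitutive beta genes lie above 100 RPKM, the immunoproteasome genes lie from 0.413 to 19.8, and the ATPase genes fall into 3 from 64.7 upward and 3 under 10.

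The constitutive beta ring held the highest levels and the narrowest spread. PSMB3, a structural subunit, led all members at 281.8 RPKM, rank 152 of 20423 genes. PSMB1, PSMB4 and PSMB2, also without a proteolytic site of their own, followed at 240.7, 237.5 and 234.6 RPKM. The catalytic subunits were lower: PSMB7, with the trypsin-like site, stood at 197.3, PSMB6, with the caspase-like site, at 155.8, and PSMB5, with the chymotrypsin-like site and the main target of proteasome inhibitor drugs, at 126.3 RPKM. The highest and the lowest of the 7 thus differed by 2.23-fold. The SD between the 7 genes was 0.41 on the log2(RPKM + 1) scale, against 2.09 over all members and 2.04 over all genes.

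The alpha ring, which pairs with the beta ring in equal numbers in the assembled barrel, was lower and more uneven. Its median was 56.1 RPKM, and the median of the beta ring, 234.6, was 4.18-fold higher. PSMA7 stood apart at 196.5 RPKM, within the range of the beta genes and 2.17-fold above the next alpha gene. PSMA5 and PSMA1 followed at 90.6 and 87.2, PSMA6 at 56.1, PSMA4 at 37.1, PSMA3 at 36.6 and PSMA2 at 29.1 RPKM. Of the 7 alpha genes 1 reached the lowest constitutive beta gene, and the highest and lowest alpha genes differed by 6.76-fold. The SD between the alpha genes was 0.96 (log2). Transcript levels per length in this library were therefore not equal among subunits that the complex holds in equal numbers.

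In the regulatory particle the ATPase genes divided sharply. PSMC5, PSMC4 and PSMC3 stood at 103.2, 80.7 and 64.7 RPKM, while PSMC1 and PSMC6 stood at 9.59 and 6.64. PSMC2 was listed at 0. All of them encode subunits of the same hexameric motor. A value of 0 in this file cannot be read as absence, since RPL10 and RPS14, which encode ribosomal proteins, and MRPL49, of the mitochondrial ribosome, were also listed at 0. In RefSeq (GRCh38.p14) the span of PSMC2 overlaps those of PMPCB, a mitochondrial peptidase gene at 9.99 RPKM, and SLC26A5, also listed at 0. Such overlap was not confined to PSMC2. PSMC5, the highest ATPase gene, overlaps FTSJ3 at 16.7 RPKM, and PSMC1 overlaps NRDE2 at 3.11. The part of overlapping genes in these values was not tested. The median of the 6 ATPase genes was 37.1 RPKM, and 64.7 without PSMC2.

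The 11 non-ATPase subunits of the regulatory particle lay between 16.2 and 136.5 RPKM, all at or above 10, with a median of 43.9. The 8 members of the lid, the part that removes ubiquitin, had a median of 38.2 RPKM, or 43.9 with the lid subunit SHFM1, which the symbol rule leaves out. PSMD8 was the highest at 136.5 and 1 of 17 regulatory members to reach the lowest constitutive beta gene. PSMD3 stood at 91.6, PSMD13 at 52.3 and PSMD7 at 43.9. PSMD14, the deubiquitinating enzyme of the lid, stood at 32.5 RPKM, 4.20-fold below PSMD8. PSMD11, PSMD6 and PSMD12 were at 30.6, 26.5 and 16.2 RPKM. In the base, the ubiquitin receptor PSMD4 stood at 78.9 and the scaffold subunits PSMD2 and PSMD1 at 69.6 and 20.1 RPKM. The 10 members at or above 100 RPKM were thus the 7 constitutive beta genes, PSMA7, PSMD8 and PSMC5.

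Each immunoproteasome gene lay far below the constitutive gene it replaces. PSMB8 stood at 0.413 RPKM against 126.3 for PSMB5, a 306-fold gap, or −6.49 on the log2(RPKM + 1) scale. PSMB9 stood at 4.99 against 155.8 for PSMB6, 31.2-fold lower (log2 −4.71). PSMB10 stood at 19.8 against 197.3 for PSMB7, 9.99-fold lower (log2 −3.26). The 3 immunoproteasome genes together made up 4.99% of the summed RPKM of the 6 genes. Their order, PSMB10 above PSMB9 above PSMB8, spanned from rank 2880 to rank 13076 of all genes. PSMB8-AS1, an antisense RNA gene, overlaps PSMB8 in RefSeq; whether the counting used strand is unknown here, so reads of the pair cannot be told apart.

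**Figure D2:**
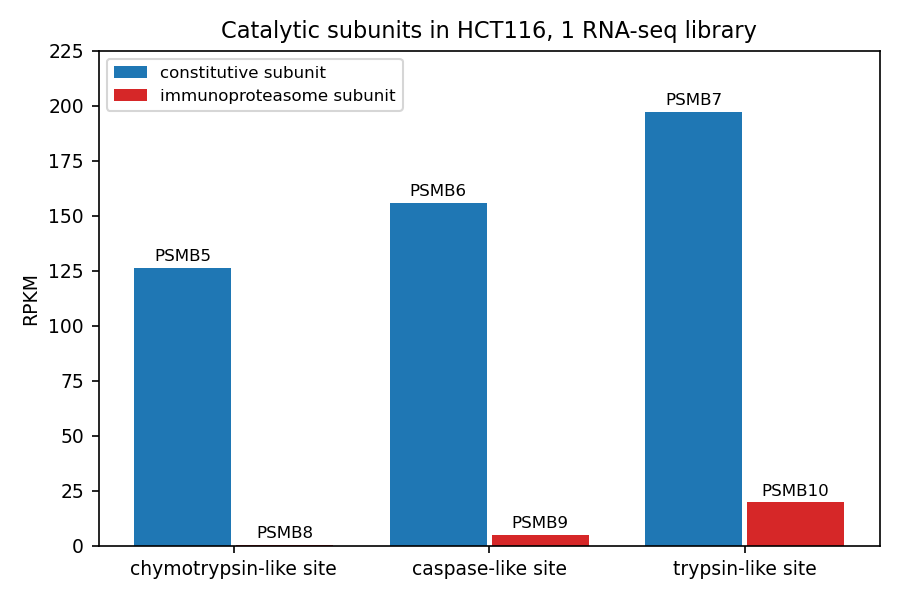
RPKM of the constitutive (blue) and immunoproteasome (red) subunit of each catalytic site in the RNA-seq library, 1 bar per gene, on a linear axis from 0. PSMB8 (0.413), PSMB9 (4.99) and PSMB10 (19.8) are each below their counterparts PSMB5 (126.3), PSMB6 (155.8) and PSMB7 (197.3).

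Genes of the interferon pathway and of peptide transport were not uniformly low beside them. The list held 8 genes with a median of 7.85 RPKM, 4 of them at or above 10, against 24.4% of all genes. TAP2 and TAP1, which carry peptides into the endoplasmic reticulum, stood at 20.7 and 10.5. The receptor chains IFNGR2 and IFNGR1 were at 22.0 and 5.24, the kinases JAK1 and JAK2 at 15.9 and 0.325, and the transcriptional regulators IRF1 and NLRC5 at 4.78 and 1.24 RPKM. PSMB8 lies between TAP2 and TAP1 in RefSeq and was the lowest of the neighbours, 50.1-fold below TAP2. PSMB9 shares a head-to-head start region with TAP1, and TAP1 was 2.09-fold above it.

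The stretches of 200 bases upstream of the starts of PSMB5, PSMB8, PSMB9 and PSMB10 are shown because the gap between constitutive and immunoproteasome genes is described above for these catalytic genes. They are the RefSeq reference (GRCh38.p14), read 5′ to 3′ on the strand of the gene, and for PSMB5 and PSMB8 the more upstream of the RefSeq starts was used. Capitals mark GC boxes (GGGCGG on either strand, the core of SP1 binding sites), IRF cores (AANNGAAA on either strand) and GAS elements (TTCNNNGAA, the same on both strands), the latter pair being motifs of interferon-responsive promoters.
PSMB5, at 126.3 RPKM, chr14:23035221-23035420, minus strand: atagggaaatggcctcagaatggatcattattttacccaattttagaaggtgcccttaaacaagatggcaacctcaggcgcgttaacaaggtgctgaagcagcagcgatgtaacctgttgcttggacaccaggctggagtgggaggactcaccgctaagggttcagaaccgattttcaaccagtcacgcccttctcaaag
PSMB8, at 0.413 RPKM, chr6:32844680-32844879, minus strand: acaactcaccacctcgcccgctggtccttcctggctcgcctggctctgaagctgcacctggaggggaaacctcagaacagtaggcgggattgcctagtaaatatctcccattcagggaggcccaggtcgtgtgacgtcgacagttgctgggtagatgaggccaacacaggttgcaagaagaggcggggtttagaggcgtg
PSMB9, at 4.99 RPKM, chr6:32853992-32854191, plus strand: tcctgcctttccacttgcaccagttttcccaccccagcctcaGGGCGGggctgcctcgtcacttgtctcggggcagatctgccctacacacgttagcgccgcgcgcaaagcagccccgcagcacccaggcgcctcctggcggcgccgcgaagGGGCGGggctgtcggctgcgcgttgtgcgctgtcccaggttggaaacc
PSMB10, at 19.8 RPKM, chr16:67936851-67937050, minus strand: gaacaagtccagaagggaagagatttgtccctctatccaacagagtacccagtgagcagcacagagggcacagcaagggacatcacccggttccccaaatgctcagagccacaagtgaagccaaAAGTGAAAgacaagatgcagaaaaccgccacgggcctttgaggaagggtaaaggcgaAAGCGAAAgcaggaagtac

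PSMB9 had 2 GC boxes in this stretch, beginning 158 and 48 bases before the start, and a GC content of 69.0%. PSMB10 had none and had 2 IRF cores, beginning 76 and 19 bases before the start. The stretches of PSMB5 and PSMB8 shown held none of the 3 motifs, which says no more than that these letters are not in these windows. In the longer windows, which run to 50 bases after each RefSeq start, PSMB8 had a GC box that begins 42 bases after its first start and another 43 bases after its second. Around that second start PSMB8 also had 2 IRF cores, TTTCGCTT and TTTCACTT, beginning 4 bases before and 2 bases after it, and the GAS letters TTCTCGGAA 65 bases before it. PSMB5 had no GC box and no IRF core in either window and had GAS letters before its second start, TTCAGTGAA and TTCTCAGAA, 158 and 15 bases upstream.

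Over all members, motifs were counted on both strands in RefSeq promoters of 300 bases, from 250 before to 50 after each start. The table held 51 promoters of 42 members, some of them overlapping windows of the same gene, and 35116 promoters in all. The members without a promoter were PSMB1 (240.7 RPKM), PSMB7 (197.3), PSMA7 (196.5), PSMB6 (155.8), PSMD4 (78.9) and PSMG3 (57.8). They enter no count or median by motif, so several of the highest members are left out there. The GC box occurred in 35 member promoters (68.6%), against 45.0% of all promoters and 71.3% of the promoters of other genes at or above 10 RPKM. The share of the members was thus above that of all promoters and slightly below that of the other genes at or above 10 RPKM, a set not matched to the members, 9 of which lie under 10 RPKM. Median GC content was 62.0% in member promoters, 66.0% in those of other genes at or above 10 RPKM and 58.7% over all. Members with a GC box had a median of 30.6 RPKM (29 genes) and those without 33.6 (13 genes), among them PSMB2 at 234.6 and PSMB4 at 237.5.

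Other motifs were searched in the same way, and for some the shares lay farther from those of the other genes at or above 10 RPKM. The antioxidant response element (TGACNNNGC, or GCNNNGTCA on the other strand) is bound by NFE2L1 and NFE2L2, factors known to activate proteasome genes. It occurred in 15 member promoters (29.4%), against 15.6% of promoters of other genes at or above 10 RPKM and 13.3% of all. The ETS core (CCGGAA or TTCCGG) occurred in 22 (43.1%), against 30.6% and 17.2%. The CCAAT box (CCAAT or ATTGG) was found in 39.2%, against 35.1% and 34.6%, and the NRF1 core (TGCGCA, for the nuclear respiratory factor) in 11.8%, against 13.6% and 8.24%. The TATA box (TATAAA or TTTATA) was found in 9.80%, against 5.37% and 11.5%, but from 100 bases before to 50 after the start in 0 of 51 member promoters, against 5.99% of all. The IRF core was found in 25.5%, against 14.6% and 22.8%, and the GAS element in 15.7%, against 5.08% and 7.66%. Matches of different motifs may share bases and were counted for each motif. A match is a description of the letters. The SP1 ChIP-seq peaks of HCT116 were not set beside these windows, so binding at them was not examined here.

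**Figure D3:**
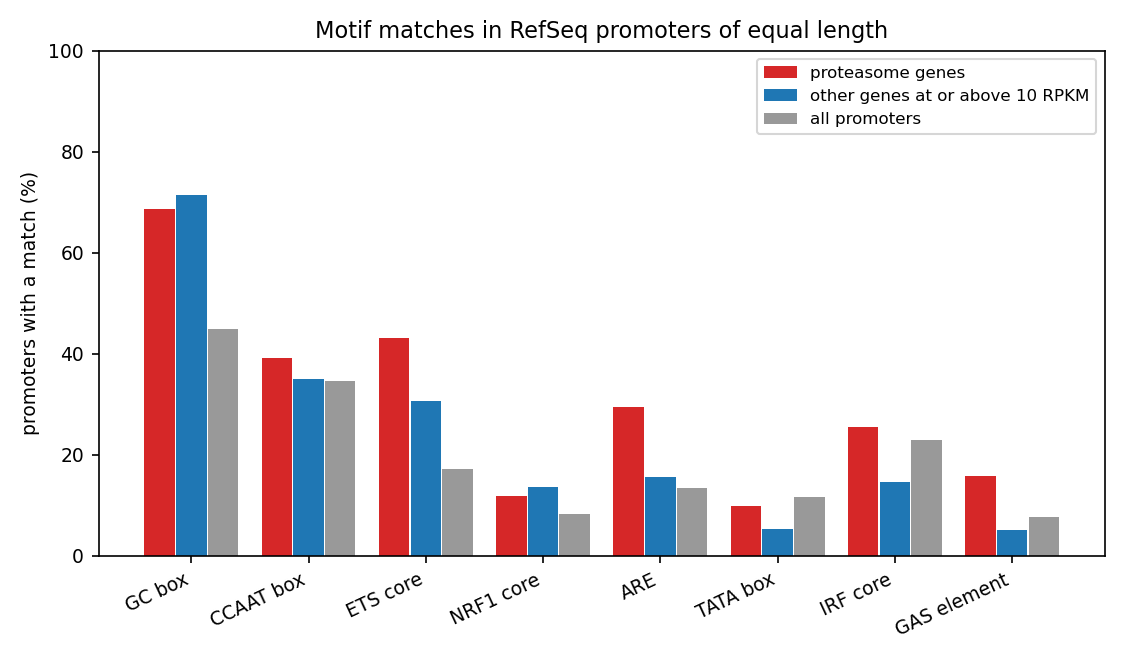
Percent of promoters of 300 bases with at least 1 match to each motif, for the 51 promoters of proteasome genes, for 5237 promoters of other genes at or above 10 RPKM, and for all 35116 promoters (ARE, antioxidant response element). Proteasome promoters hold the ARE letters in 29.4% against 15.6% and 13.3%, and the GC box in 68.6% against 71.3% and 45.0%.

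Genes with the antioxidant response element occurred in several roles, in unequal shares. They were 3 of 4 activators, 4 of 7 assembly factors, 2 of 6 ATPase genes and 3 of 11 non-ATPase regulatory subunits. Among the other classes they were 1 of 3 immunoproteasome genes, 1 of 7 alpha genes and 1 of 7 constitutive beta genes. Of these classes, PSMB1, PSMB6, PSMB7, PSMA7, PSMD4 and PSMG3 had no promoter to search. Matches before the start are shown for members at both ends of the range of levels, since the letters occurred at all of these levels. The capitals are the matched letters, on the strand that reads TGAC.
PSMB3, at 281.8 RPKM, chr17:38752637-38752645, 104 bases before the start: ccgtttTGACTTTGCaaccaa
PSMC5, at 103.2 RPKM, chr17:63827664-63827672, 57 bases before: cggcgcTGACACAGCagatcc
PSMD3, at 91.6 RPKM, chr17:39980770-39980778, 37 bases before: ctttgtTGACTCGGCcatcgg
PSMA4, at 37.1 RPKM, chr15:78540660-78540668, 126 bases before: gcacgaTGACTCTGCaccgcc
PSMD12, at 16.2 RPKM, chr17:67366734-67366742, 165 bases before: aaaaccTGACGCTGCaggctg
PSME4, at 5.34 RPKM, chr2:53971019-53971027, 34 bases before: tgctggTGACGCTGCagccgc
PSMB9, at 4.99 RPKM, chr6:32854044-32854052, 148 bases before: gacaagTGACGAGGCagcccc

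The coordinates are those of the capitals in GRCh38.p14. Among the 42 members with a promoter, the 15 with the element had a median of 20.1 RPKM and the 27 without it 32.5. Members with the letters were thus not the higher ones of these 42, which leave out PSMB1, PSMB6, PSMB7 and PSMA7. The 15 and the 27 also differ in roles, and the medians were not compared within classes. Of the factors themselves, NFE2L1 stood at 86.4 and NFE2L2 at 29.0 RPKM. Their small MAF partners MAFG, MAFK and MAFF stood at 19.2, 19.1 and 8.20. DDI2 and NGLY1, which process NFE2L1, were at 6.05 and 5.83, and the segregase VCP at 38.9 RPKM. All 8 of these regulators were at or above 1 RPKM and 5 at or above 10, against 57.0% and 24.4% of all genes.

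Activators of the core differed widely. PSME1 and PSME2, whose products form a mixed ring induced by interferon, stood at 74.7 and 43.1 RPKM, a 1.73-fold difference. The nuclear activator PSME3 stood at 33.6 and the large activator PSME4 at 5.34, 13.99-fold below PSME1. PSME1 and PSME2 were thus within the range of the non-ATPase subunits, as was the immunoproteasome gene PSMB10 at 19.8, while PSMB8 and PSMB9 were not. The inhibitor gene PSMF1 stood at 28.6 RPKM.

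Assembly factors had a median of 16.7 RPKM over 7 genes, below the medians of the rings, the non-ATPase subunits and the activators. Among the chaperones of the core, PSMG3 stood at 57.8, PSMG4 at 29.6, PSMG1 at 16.7 and PSMG2 at 14.7. PSMG3 and PSMG4 act as a pair, as do PSMG1 and PSMG2; the first pair differed by 1.95-fold, and the members of the second were both lower. The chaperones of the regulatory particle, PSMD9, PSMD10 and PSMD5, stood at 19.95, 13.2 and 5.19 RPKM. The maturation factor POMP, outside the symbol rule, stood at 16.8.

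The tissue-restricted core genes were, with PSMC2, the lowest listed values of the family. PSMA8, an alpha subunit of the testis, was listed at 0, and PSMB11, a beta subunit of the thymus, stood at 0.0226 RPKM. PSMB11 is the neighbour of PSMB5 in RefSeq, which stood at 126.3. The 9 members under 10 RPKM were these, PSMB8, PSMB9, PSMC1, PSMC2, PSMC6, PSME4 and PSMD5.

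Partners of the proteasome that carry other symbols lay between 4.35 and 131.1 RPKM, within the wider range of the members. Of 12 such genes all were at or above 1 RPKM, as were 57.0% of all genes. At or above 10 RPKM were 7 of the 12, against 24.4% of all genes, and their median was 19.7. The ubiquitin receptor ADRM1 was at 131.1, the lid subunit SHFM1 at 96.7 and the shuttle factor RAD23B at 77.1 RPKM. UBQLN1 and UBQLN2, also shuttle factors, were at 25.2 and 7.89, TXNL1 at 23.1 and the ligase UBE3C at 22.7. The deubiquitinating enzymes UCHL5 and USP14 stood at 7.45 and 4.35, below PSMD14, and KIAA0368 and PAAF1, which bind the regulatory particle, at 9.77 and 5.01. Of the genes that encode ubiquitin, UBB stood at 1025 and RPS27A at 147 RPKM.

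Set beside other large complexes, the proteasome genes had a median of 36.8 RPKM, close to the 34.1 of the 76 genes of the mitochondrial ribosome. Over all their genes the proteasome genes were spread more widely, with an SD of 2.09 (log2) against 1.43. Without genes under 1 RPKM the SDs were closer, 1.52 against 1.31. Highest and lowest then differed by 56.4-fold for the proteasome and 73.7-fold for the mitochondrial ribosome. The 8 subunits of the chaperonin CCT had a median of 73.0 RPKM, 1.98-fold higher, and none under 49.6. The 83 genes of the cytoplasmic ribosome had a median of 555.8, 15.1-fold higher. The chaperonin subunits, which form a ring in equal numbers as the beta subunits do, had an SD of 0.84 (log2), between that of the beta ring (0.41) and of the alpha ring (0.96). These differences between groups of genes were not tested.

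**Figure D4:**
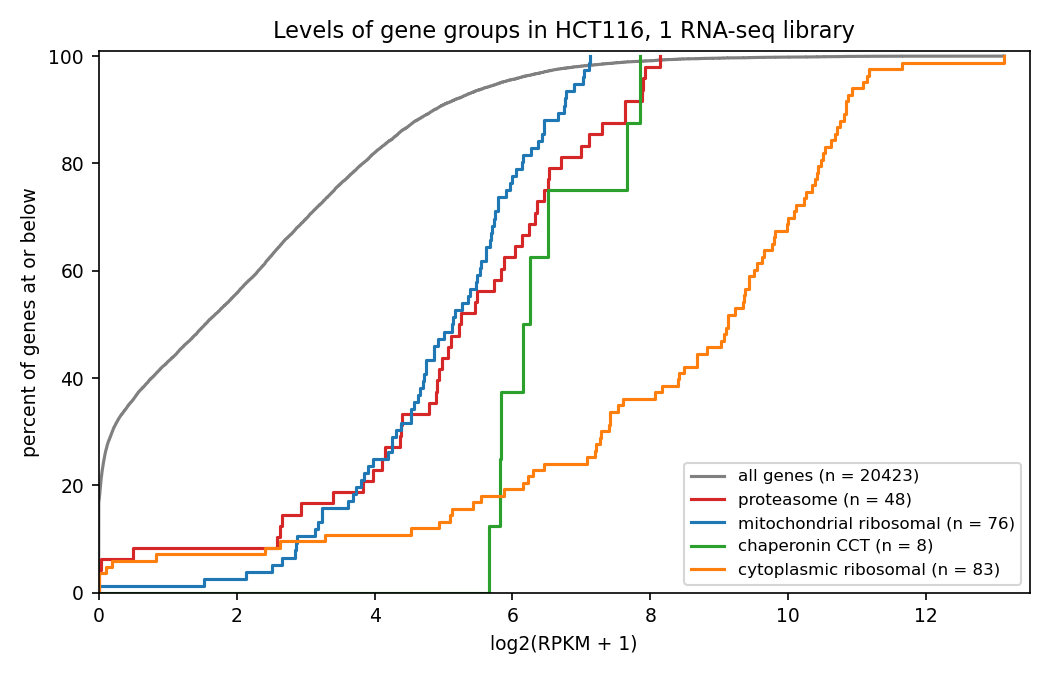
Cumulative percent of genes at or below each level, in log2(RPKM + 1), for the 48 proteasome genes, for 3 other complexes and for all 20423 genes of the library. The proteasome curve has a median near that of the mitochondrial ribosome (36.8 and 34.1 RPKM), and the highest values are 281.8 and 138.8. Its SD over all genes of the group is larger (2.09 against 1.43), but less so without genes under 1 RPKM (1.52 against 1.31). By median, the proteasome curve lies right of all genes (1.91) and left of the cytoplasmic ribosome (555.8).

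Several members have pseudogene copies in the genome. RefSeq names 52 pseudogenes after 21 of the 48 members. The median of members with such copies was 56.1 RPKM, against 29.6 for the 27 without. The groups differ in roles, since the 3 immunoproteasome and 2 tissue-restricted genes are all without. By class, medians with and without were 71.6 and 37.1 (alpha ring, 1 gene without) and 239.5 and 234.6 (constitutive beta ring). They were 56.7 and 30.6 for the non-ATPase subunits, 35.5 and 16.7 for assembly factors, and 43.1 (1 gene) and 33.6 for activators. Within the ATPase ring the order was the opposite. PSMC1, with 13 named pseudogenes the most of all members, stood at 9.59, PSMC6 with 3 at 6.64 and PSMC2 with 2 was listed at 0, whereas PSMC5 and PSMC4 with none stood at 103.2 and 80.7. PSMC3, with 1, stood at 64.7. PSME2, with 6, stood at 43.1 and PSMA6 and PSMD7, with 4 each, at 56.1 and 43.9. How the authors' counting treated reads that match several places is unknown here, and the part of pseudogenes in these values was not tested.

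**Figure D5:**
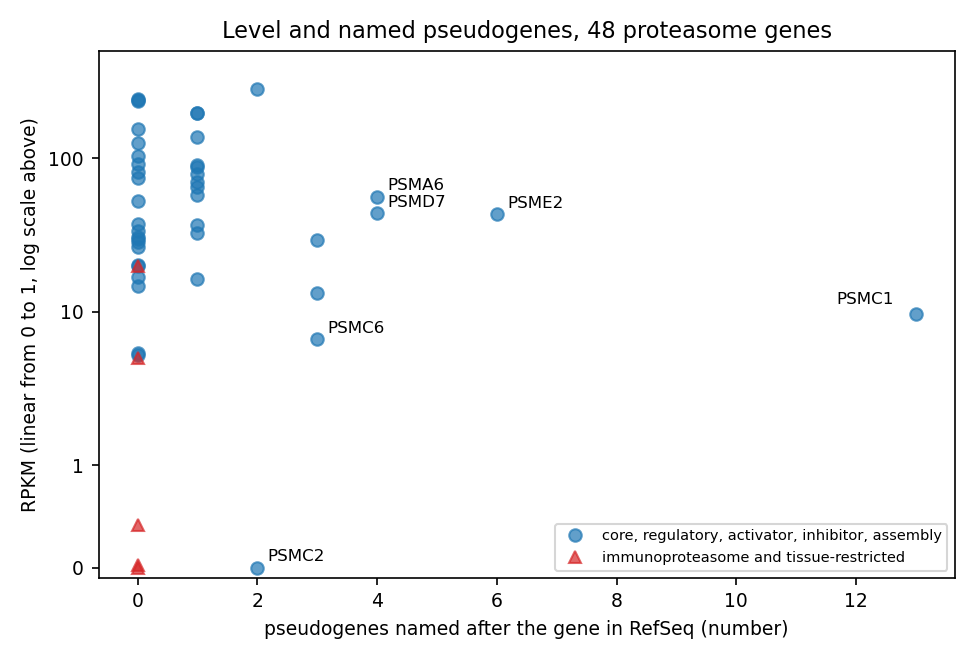
RPKM of the 48 proteasome genes (linear from 0 to 1, logarithmic above) against the number of pseudogenes that RefSeq names after each gene, with 1 point per gene. PSMC1 (13 pseudogenes, 9.59 RPKM), PSMC6 (3, 6.64) and PSMC2 (2, listed at 0) lie low, while PSME2 (6, 43.1), PSMA6 and PSMD7 (4 each, 56.1 and 43.9) lie among the other members.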

How the data were processed

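The deposited expression table gives 1 RPKM value for each RefSeq gene, which the authors calculated with Cufflinks from reads aligned to hg18 with TopHat, per the deposited readme; the Cufflinks version was 1.1.0 per the submitters' processing notes. The library has no replicate, its depth is unknown here, and RPKM keeps no counts. Strand use, treatment of multiply mapped reads and the meaning of a value of 0 are also unknown. Levels were used as deposited, ranked over all 20423 genes, and summarised by class with medians and the SD of log2(RPKM + 1). Classes and lists come from general knowledge; members and lists were chosen with earlier results of these data known. All members are named; other genes are named from the lists, as neighbours, as overlapping genes or as genes listed at 0. Some genes of the lists are not reported here and were left out of their counts. The IRF and GAS motifs were added after the levels had been seen. Promoters, pseudogene names and neighbours come from RefSeq (GRCh38.p14), matched by symbol. Promoters were found for 42 of 48 members. Peaks and insertions are in hg18, for which no gene positions were used, so they were not analysed here and the planned count of them near members was not made. Motif search and medians were checked on simulated data. Python 3.11.15, pandas 2.3.3, numpy 2.4.6 and matplotlib 3.10.9 were used.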

Additional observations from a re-analysis of the deposited data

How the results depend on the processing

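No paired analysis was possible because the result comes from 1 library and from no test. The share of members was 89.6% at or above 5 RPKM and 68.8% at or above 20, which are other quantities than the 81.3% at 10. The shares of all genes at 5 and 20 RPKM were not counted. At 10 RPKM the share of members was 88.6% without genes under 1 RPKM. Leaving out such genes raises the share of all genes too, from 4974 of 20423 to 4974 of 11638. Without members with a named pseudogene the share of members at 10 RPKM was 77.8%, a setting chosen after seeing the data. The median of all members became 43.5 RPKM without genes under 1 RPKM, 40.1 without genes listed at 0, 40.1 without PSMA8 and PSMB11, and 29.6 without members with a named pseudogene. Without genes under 1 RPKM the immunoproteasome median became 12.4 and the ATPase median 64.7, the latter also without genes listed at 0. Without members with a named pseudogene the medians became 37.1 (alpha ring, 1 gene left), 92.0 (ATPase ring), 30.6 (non-ATPase subunits) and 33.6 (activators). This alternative too was chosen after seeing the data, as was leaving out PSMA8 and PSMB11. Each of these settings leaves genes out, which by itself moves a median. With a pseudocount of 0.1 or none the log2 ratios became −7.94 and −8.26 for PSMB8 to PSMB5, −4.94 and −4.96 for PSMB9 to PSMB6, and −3.31 and −3.32 for PSMB10 to PSMB7. Against promoters of other genes at or above 10 RPKM, also an added comparison, the difference in share turned from 23.7 to −2.71 percentage points for the GC box, from 3.53 to −1.87 for the NRF1 core and from −1.73 to 4.44 for the TATA box. From 100 bases before to 50 after the start, the antioxidant response element occurred in 13.7% of member promoters and 7.80% of all. The planned count of SP1 peaks and insertions at members was not run.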

Other observations

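Genes next to the members on the chromosome had a lower median than the members and a higher one than all genes. The nearest protein-coding genes on either side in RefSeq, leaving out members, numbered 87 with a value in the expression file, and their median was 3.88 RPKM, against 1.91 for all genes. Of these neighbours 28 (32.2%) were at or above 10 RPKM, against 24.4% of all genes. The neighbours are protein-coding by choice, whereas all genes of the expression file include non-coding entries, so the sets are not alike. PSMB4 at 237.5 RPKM lies beside SELENBP1 at 0.0252 and POGZ at 13.6. PSMD8 at 136.5 lies between CATSPERG at 0.438 and GGN at 0.518. PSMC4 at 80.7 lies between FCGBP, a mucus protein gene, at 0.628 and ZNF546 at 0.0187. Some neighbours were higher than the member: EIF4G1 at 71.8 beside PSMD2 at 69.6, ZNF207 at 54.4 beside PSMD11 at 30.6, and PHF19 at 30.3 beside PSMD5 at 5.19.

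Of 42 members with a RefSeq promoter, 12 have a gene that starts on the opposite strand within 1000 bases upstream, and for 9 of these the partner has a value. The same share over all genes was not counted, so whether 12 of 42 is unusual is unknown here. PSMA2 and MRPL32, a gene of the mitochondrial ribosome, stood at 29.1 and 28.1 RPKM. PSME2 and RNF31, a ubiquitin ligase subunit gene, stood at 43.1 and 26.2. Other such pairs were far apart: PSMD13 at 52.3 with the deacetylase gene SIRT3 at 8.38, PSMC5 at 103.2 with FTSJ3 at 16.7, PSMD9 at 19.95 with HPD at 1.24, and PSMD10 at 13.2 with ATG4A, an autophagy protease gene, at 1.58. PSMG2 and CEP76 stood at 14.7 and 2.48, and PSME4 and ACYP2 at 5.34 and 3.05. The spans of PSMC5 and FTSJ3, of PSMD10 and ATG4A, and of PSMG2 and CEP76 overlap in RefSeq. The part of this overlap in their values was not tested. PSMB9 with TAP1 was the sole pair of the 9 in which the partner was higher. These pairs were looked up after the levels had been seen.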
